A study of Mus musculus with 24 samples.

Results

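The genes described here are 10 transcripts of the endoplasmic reticulum (ER) stress response, followed across livers of mice with mouse, human or no constitutive androstane receptor (CAR). The genes were Hspa5, Dnajb9, Sdf2l1, Creld2, Herpud1, Xbp1, Atf4, Ddit3, Trib3 and Chac1, and every probe set annotated to them was taken, whatever its value. They made up 10 of the 12393 genes and 18 of the 20380 probe sets with 1 gene symbol. All 10 genes passed the filter on dim probe sets, as did 17 of the 18 probe sets. The exception was 1 of the 3 Atf4 probe sets, which lay between 4.16 and 4.90 and above the dim limit on 0 arrays.

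Liver RNA of 24 female mice of mixed C57BL/6x129Sv background was read on 1 Affymetrix array per mouse. Wild-type mice carried mouse CAR (gene Nr1i3), a nuclear receptor that switches on drug-metabolising genes. The knockout lacked it (mCAR -/-), and human CAR mice had that same deletion together with a human CAR transgene under the mouse albumin promoter, which is active in hepatocytes. Each genotype was given corn oil, phenobarbital (spelled phenobarbitol in the labels), TCPOBOP or CITCO by intraperitoneal injection, with 2 mice in each of the 12 groups. Phenobarbital (100 mg/kg per day) and CITCO (30 mg/kg per day) were injected on 3 days at intervals of 24 h. TCPOBOP (3 mg/kg) was injected once and followed by corn oil, and livers were taken 6 h after the last injection. Per the labels, phenobarbital can act through either receptor, TCPOBOP is a ligand of mouse CAR and CITCO is specific for human CAR. The labels used here give no ages. A group of 2 mice limits the precision of every value. The p-values measure only the spread between these mice within their groups, with 1 estimate per gene shared by all 12 groups.

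The ER folds secreted and membrane proteins, and hepatocytes, which secrete most plasma proteins, have a large one. When unfolded proteins build up in it, the sensors IRE1, PERK and ATF6 start the unfolded protein response. IRE1 splices Xbp1 mRNA into the form that encodes an active transcription factor, PERK slows translation and raises ATF4 protein, and ATF6 is cut to release a transcription factor. ATF6 and XBP1 switch on chaperones and degradation genes through ER stress elements, while ATF4 and its target CHOP, the product of Ddit3, switch on amino acid and stress genes through composite C/EBP-ATF elements. The arrays measure mRNA, so splicing of Xbp1, translation and protein processing were not read.

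The promoters of 4 of these genes are shown because they hold the elements by which ATF6, XBP1 and ATF4 are known to act, and because Creld2 and Hspa5 are the genes that passed a test below. Each is the 250 bases before the annotated start in RefSeq, build GRCm38.p6, written 5′ to 3′ along the gene. Capitals mark the fixed letters of a matched element, on either strand.
Creld2, chr15:88819396-88819645, plus strand: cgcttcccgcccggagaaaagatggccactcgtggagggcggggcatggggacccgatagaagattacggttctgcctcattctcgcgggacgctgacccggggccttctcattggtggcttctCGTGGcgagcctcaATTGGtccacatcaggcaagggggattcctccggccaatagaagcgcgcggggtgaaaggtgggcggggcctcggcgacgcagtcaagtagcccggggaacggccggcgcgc
Hspa5, chr2:34771840-34772089, plus strand: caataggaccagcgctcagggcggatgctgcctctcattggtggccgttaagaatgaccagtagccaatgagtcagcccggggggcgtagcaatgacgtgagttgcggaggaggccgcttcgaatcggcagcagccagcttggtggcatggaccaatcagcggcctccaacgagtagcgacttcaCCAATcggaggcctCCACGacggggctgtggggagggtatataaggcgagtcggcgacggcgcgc
Herpud1, chr8:94386179-94386428, plus strand: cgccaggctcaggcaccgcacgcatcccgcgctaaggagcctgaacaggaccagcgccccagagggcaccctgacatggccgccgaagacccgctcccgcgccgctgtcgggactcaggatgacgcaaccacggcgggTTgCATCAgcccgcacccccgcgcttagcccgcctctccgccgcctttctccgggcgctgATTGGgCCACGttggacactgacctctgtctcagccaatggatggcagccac
Chac1, chr2:119350992-119351241, plus strand: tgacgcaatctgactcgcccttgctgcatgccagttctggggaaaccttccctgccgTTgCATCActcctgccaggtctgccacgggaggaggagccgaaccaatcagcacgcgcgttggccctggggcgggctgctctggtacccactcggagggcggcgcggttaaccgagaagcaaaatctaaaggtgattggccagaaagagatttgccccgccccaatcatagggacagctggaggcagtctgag

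All 10 genes had an entry in the RefSeq promoter table, and both strands of a window of 300 bases, 250 before to 50 after the start, were searched. The ER stress element (CCAAT, any 9 bases, then CCACG) was found in 39 of 32851 promoters (0.119%), Creld2 and Hspa5 among them, at 126 and 65 bases before the start. In Creld2 it runs on the opposite strand and so reads in reverse complement above. The second form of the element (ATTGG, any base, then CCACG) was found in 12 promoters (0.0365%), and the Herpud1 promoter held it at 52 bases before the start. The core letters of the composite element, TGATGNAA, were in 1304 promoters (3.97%) and in those of Chac1, Herpud1 and Trib3. In Chac1 and Herpud1 they lay 193 and 112 bases before the start, on the opposite strand, and in Trib3 just after it. The unfolded protein response element core TGACGTGG was in 222 promoters (0.676%) and in 0 of the 10. The last letters of the first element alone, CCACG, which overlap both ER stress elements, were in 10765 promoters (32.8%) and in 7 of the 10. These are matches of letters and were not tested as binding sites.

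The labels were checked first. Log2 expression of Nr1i3 was 6.84 to 8.0 in the 8 wild-type livers and 5.03 to 5.60 in the other 16, so no label was contradicted; where its probe set lies relative to the deletion is not known here. Of 9 measured hepatocyte markers, 9 were above the dim limit on all 24 arrays. Of 8 measured markers of plasma and B cells, which are rich in ER, 5 (Jchain, Cd79b, Tnfrsf17, Prdm1 and Pou2af1) were above it on 0 arrays. Another of those 8 was above it on all 24. Of 6 cholangiocyte markers, Krt7, Epcam and Cftr were above it on 0 arrays and 2 were above it on all 24. In bulk liver, fewer cells of a type and less RNA per cell cannot be told apart. The arrays of knockout phenobarbital replicate 2 and human CAR phenobarbital replicate 1 stood apart from the other 22. Their first principal component scores were -29.9 and -48.6, against -12.0 to 17.3 on the others, and their median correlations with other arrays were 0.980 and 0.97, against 0.981 to 0.991. A gene's change that moved by over 1.5 times without them is given both ways, while other probe sets and correlations are given with all 24 arrays.

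Changes below are log2 fold changes of limma, a linear model fitted to all genes, with the standard error (SE), and adjusted p is its Benjamini-Hochberg value over 9167 genes. A gene passed at an adjusted p under 0.05. Over 22 comparisons the 10 genes passed in 2: Creld2 was lower with phenobarbital than with corn oil in wild type, and Hspa5 was lower with phenobarbital than with TCPOBOP in wild type. In the other 20 comparisons limma called 0 of the 10, with between 0 and 4 of them at an unadjusted p under 0.05 in a comparison, against 5.03% to 21.3% of all genes. The 3 ligand comparisons of a genotype share its 2 corn oil arrays. Groups of 2 arrays often do not overlap. Against corn oil in wild type this held for 52.1% of all genes with phenobarbital, 54.2% with TCPOBOP and 45.6% with CITCO. For the other comparisons that share was not taken, so a lack of overlap there only describes the values.

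Creld2, an ER protein with disulfide-exchange activity that is secreted in part, had the largest fall. It read 8.38 and 8.19 in wild-type mice on corn oil and 6.82 and 6.43 in wild-type mice on phenobarbital. With the second wild-type CITCO array, at 6.79, the phenobarbital arrays were the 3 lowest of the 24, and they did not overlap with corn oil. The means were 8.29 ± 0.13 and 6.62 ± 0.28 (SD, n = 2 each), the highest and the lowest of the 12 groups. Creld2 fell by 1.66 on the log2 scale (SE 0.36, 95% interval -2.42 to -0.90, adjusted p = 0.0275), a 3.17-fold difference. It was the only one of the 10 genes to pass in this comparison, in which 135 genes, 1.47% of those tested, were called. The call was lost without any 1 of the 4 arrays (adjusted p from 0.0982 to 0.268, changes from -1.86 to -1.47) and after cyclic loess normalisation (adjusted p = 0.0511).

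In wild type Creld2 read 7.98 and 7.57 with TCPOBOP, between the other groups, and 7.82 and 6.79 with CITCO. Its change was -0.51 (SE 0.36, adjusted p = 0.454) with TCPOBOP and -0.99 (SE 0.36, adjusted p = 0.602) with CITCO. All 6 wild-type arrays given a ligand lay below both corn oil arrays. Creld2 was one of the 7 genes whose groups did not overlap with TCPOBOP, where 54.2% of all genes tested did not overlap, and one of 5 with CITCO, against 45.6%.

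Outside wild type the group means of Creld2 lay between 7.36 and 8.0. Knockout arrays read 7.34 and 7.67 on corn oil, 7.82 and 7.69 with phenobarbital, 7.19 and 7.59 with TCPOBOP and 7.86 and 7.70 with CITCO. Human CAR arrays read 7.73 and 7.53 on corn oil, 8.61 and 7.25 with phenobarbital, 7.06 and 7.66 with TCPOBOP and 7.87 and 8.13 with CITCO. The 8.61 belongs to an array that stood apart and was the highest of the 24. With phenobarbital the knockout change was 0.25 (adjusted p = 0.699) and the human CAR change 0.30 (adjusted p = 0.629), each with an SE of 0.36, and the latter was -0.38 without that array. The wild-type effect minus the knockout effect was -1.92 (SE 0.51, interval -2.99 to -0.84, adjusted p = 0.209), and minus the human CAR effect -1.97 (SE 0.51, interval -3.04 to -0.89, adjusted p = 0.155). Without the arrays that stood apart these were -1.98 and -1.29 (adjusted p = 0.134 and 0.454). Neither difference passed, so a difference between genotypes was not shown for Creld2 over all genes tested.

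Markers of other cells were read in the same contrast, and 0 of them passed. Averaged over the 11 measured Kupffer cell markers, wild-type livers read 7.10 and 7.21 with phenobarbital and 7.48 and 7.88 with corn oil. Their median change was -0.53, with 11 of 11 below 0, 0 called by limma and 4 at an unadjusted p under 0.05, against 13.6% of all genes. Of these markers, 0 were below the dim limit on every array. The mean of the 9 hepatocyte markers was 11.97 to 11.99 with phenobarbital and 12.06 to 12.29 on corn oil. Their part in the fall of Creld2 was not tested.

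**Figure D1:**
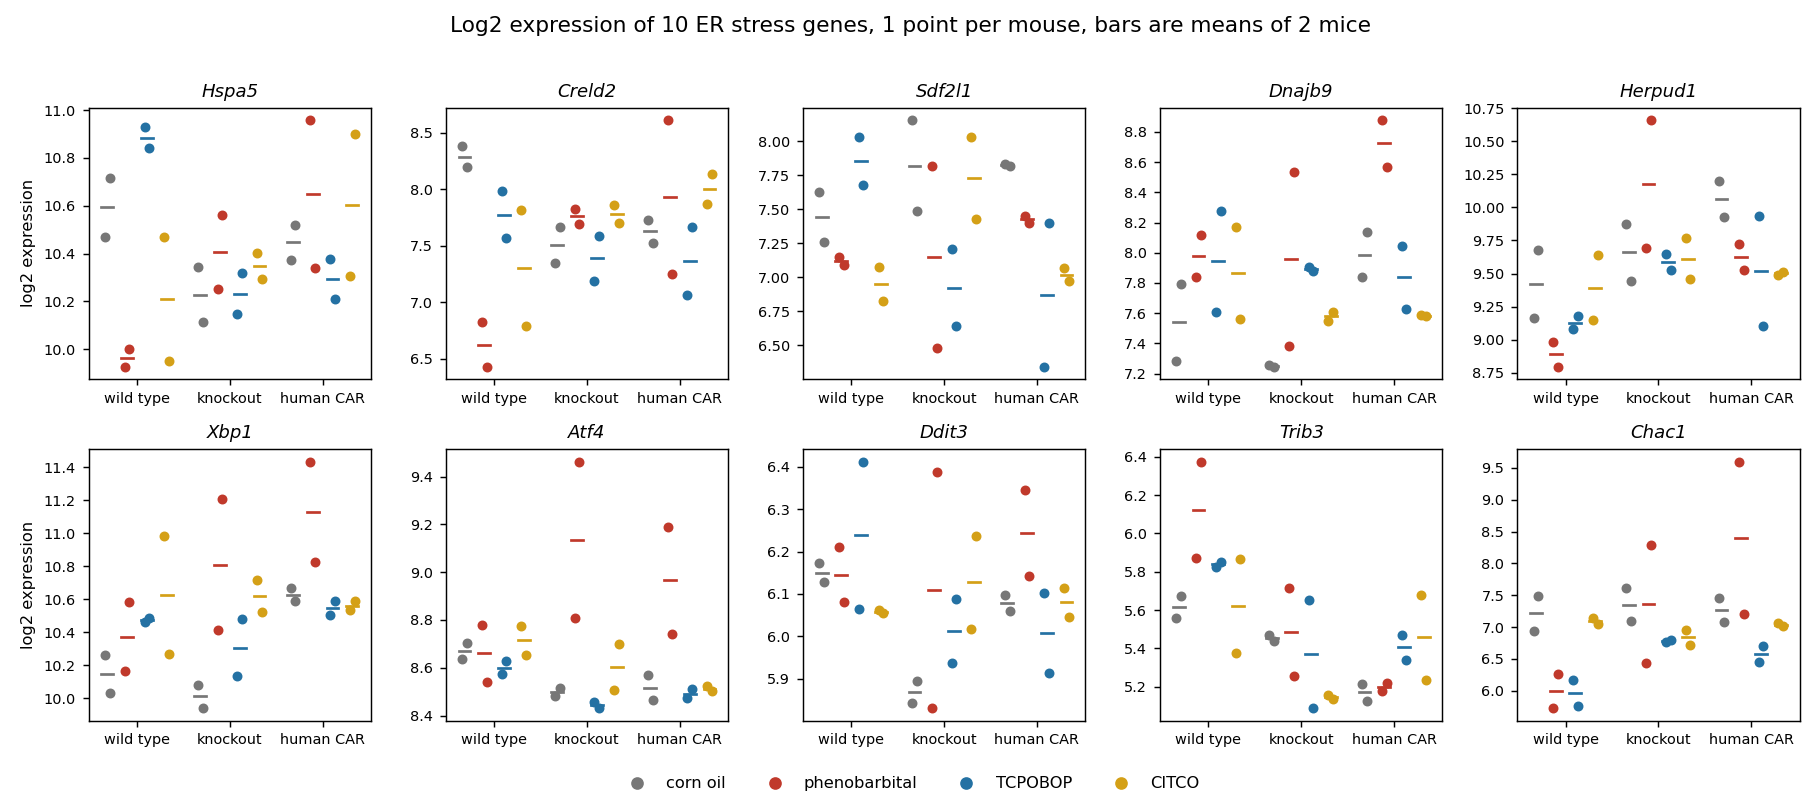
Log2 expression of the 10 genes on every array, 1 point per mouse, with a bar at the mean of 2 mice; the 3 positions of each panel are wild type, knockout and human CAR mice and the colours are the treatments. Creld2 lay at 6.82 and 6.43 with phenobarbital in wild type and at 8.38 and 8.19 with corn oil, and the Chac1 point at 9.60 is human CAR phenobarbital replicate 1; each panel has its own axis range.

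Hspa5 encodes BiP, the Hsp70 chaperone of the ER lumen that holds the stress sensors inactive. In wild type it read 10.47 and 10.72 on corn oil, 9.93 and 10.00 with phenobarbital, 10.93 and 10.84 with TCPOBOP and 10.47 and 9.95 with CITCO. The phenobarbital arrays lay below the corn oil arrays and the TCPOBOP arrays above them. Group means were 10.88 ± 0.06 with TCPOBOP and 9.96 ± 0.05 with phenobarbital (SD, n = 2 each), the highest and the lowest of the 12.

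The wild-type phenobarbital mean of Hspa5 was 0.92 below that with TCPOBOP on the log2 scale (-0.92, SE 0.21, adjusted p = 0.0434), in a comparison in which 117 genes, 1.28%, were called. Doses and schedules of these ligands differed. The second Hspa5 probe set gave -1.08 (SE 0.20, adjusted p = 0.00851) in a fit over 13524 probe sets. The call on the first was lost without any 1 of the 4 arrays (adjusted p from 0.176 to 0.363), after cyclic loess (0.0757) and with the replicate number as a block (0.0538). Against corn oil Hspa5 passed with neither ligand: its change was -0.63 (SE 0.21, adjusted p = 0.19) with phenobarbital and 0.29 (SE 0.21, adjusted p = 0.475) with TCPOBOP. In the contrast of the ligands all 11 Kupffer markers were again below 0 with a median of -0.42, 0 called by limma and 2 at an unadjusted p under 0.05 (10.8% of all genes), and their part in the result was not tested.

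Knockout arrays of Hspa5 read between 10.11 and 10.56 under the 4 treatments, with a change of 0.18 with phenobarbital (SE 0.21, adjusted p = 0.634) and of 0.02 without replicate 2. The second probe set read 8.95 on both knockout phenobarbital arrays, against 8.65 and 8.46 on corn oil, so its rise there did not rest on replicate 2. In human CAR mice that probe set read 9.27 and 8.68 with phenobarbital, against 8.65 and 8.69 on corn oil. On the first probe set the values were as follows. Human CAR arrays read between 10.21 and 10.96, where the highest value was again phenobarbital replicate 1. Their change with phenobarbital was 0.20 (SE 0.21, adjusted p = 0.588) and -0.11 without that array. Creld2 and Hspa5 had the highest correlation of group means among the 45 pairs of genes (Pearson r 0.81 over 12 groups). That r is a description, and neighbouring groups share genotype and treatment. Both genes had their highest value on human CAR phenobarbital replicate 1, which stood apart, and no r was taken without it.

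Sdf2l1, which works with BiP in an ER chaperone complex, was low in several groups. It read 7.63 and 7.26 in wild type on corn oil, 7.15 and 7.09 with phenobarbital, 8.03 and 7.68 with TCPOBOP and 7.08 and 6.83 with CITCO. In knockout it read 8.16 and 7.49 on corn oil and 7.21 and 6.64 with TCPOBOP, and in human CAR mice 7.83 and 7.82 on corn oil and 6.34 and 7.40 with TCPOBOP. The TCPOBOP arrays lay above corn oil in wild type and below it in the other genotypes. The wild-type change was 0.41 (adjusted p = 0.577), the knockout change -0.90 (adjusted p = 0.392) and the human CAR change -0.96 (adjusted p = 0.656), each with an SE of 0.37. The differences between the wild-type effect and the others were 1.31 and 1.37 (SE 0.53 each, adjusted p = 0.295 and 0.273), and neither passed. Over all genes 1.95% and 1.87% were called in these differences.

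Dnajb9 encodes ERdj4, a partner of BiP that helps to keep IRE1 off. It read 7.28 and 7.80 in wild type on corn oil and 7.84 and 8.11 with phenobarbital. In knockout the corn oil arrays lay at 7.26 and 7.25, the lowest of the 12 group means, and the phenobarbital arrays at 7.38 and 8.54. In human CAR mice corn oil gave 7.84 and 8.13 and phenobarbital 8.88 and 8.57, the highest group mean. Within each genotype both phenobarbital arrays lay above both corn oil arrays. The changes were 0.44 (SE 0.30, adjusted p = 0.561), 0.71 (SE 0.30, adjusted p = 0.202) and 0.74 (SE 0.30, adjusted p = 0.187) in wild type, knockout and human CAR mice, and 0 of these 3 passed. Without the arrays that stood apart the knockout and human CAR changes were 0.13 and 0.58.

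Herpud1 encodes an ER membrane protein of the degradation machinery. Its group means ran from 8.89 ± 0.13 in wild type on phenobarbital to 10.17 ± 0.68 in knockout on phenobarbital (SD, n = 2 each). It read 9.17 and 9.68 in wild type on corn oil and 8.98 and 8.80 with phenobarbital, with a change of -0.53 (SE 0.29, adjusted p = 0.446). Its second probe set gave -0.82 (SE 0.35, adjusted p = 0.31). In knockout it read 9.88 and 9.44 on corn oil and 9.69 and 10.66 with phenobarbital, with a change of 0.51 (SE 0.29, adjusted p = 0.308) and of 0.03 without the array at 10.66. In human CAR mice the change with phenobarbital was -0.43 (SE 0.29, adjusted p = 0.388).

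Of the transcription factors, Xbp1 had its 2 highest group means on phenobarbital outside wild type. It read 10.08 and 9.94 in knockout on corn oil and 10.41 and 11.20 with phenobarbital, and 10.67 and 10.59 in human CAR mice on corn oil and 11.43 and 10.83 with phenobarbital. The groups did not overlap in either genotype, but the share of all genes without overlap was not taken there. The changes were 0.80 (SE 0.25, adjusted p = 0.112) and 0.50 (SE 0.25, adjusted p = 0.262). Without the arrays that stood apart, at 11.20 and 11.43, they were 0.40 and 0.20. In wild type Xbp1 read 10.26 and 10.03 on corn oil and 10.16 and 10.58 with phenobarbital, which overlap, with a change of 0.23 (SE 0.25, adjusted p = 0.751). Its 3 other probe sets gave -0.02, 0.05 and 0.21 there, 0.64, 0.68 and 0.48 in knockout and 0.35, 0.38 and 0.08 in human CAR mice, and 0 of these 9 values passed.

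Atf4 had the smallest adjusted p of the 10 genes for phenobarbital in knockout. It read 8.48 and 8.51 on corn oil and 8.81 and 9.46 with phenobarbital, groups that do not overlap, and the change was 0.64 (SE 0.17, adjusted p = 0.0747). Without replicate 2, at 9.46, it was 0.31, and without replicate 1 it was 0.96, each with 1 phenobarbital mouse left. In human CAR mice Atf4 read 8.57 and 8.47 on corn oil and 9.19 and 8.74 with phenobarbital, with a change of 0.45 (SE 0.17, adjusted p = 0.155) and of 0.23 without the array at 9.19. Wild-type Atf4 read 8.54 to 8.78 on all 8 arrays, and its change with phenobarbital was -0.01 (SE 0.17). The second Atf4 probe set above the dim limit gave 0.44, 0.38 and -0.14 in knockout, human CAR and wild-type mice.

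Ddit3, which encodes the pro-apoptotic factor CHOP, varied least, between 5.83 and 6.41 over 24 arrays. Its changes in the 9 comparisons of a ligand with corn oil ran from -0.09 to 0.26, and 0 passed. Trib3 encodes a pseudokinase switched on by ATF4 and CHOP. It read 5.56 and 5.67 in wild type on corn oil, 5.87 and 6.38 with phenobarbital and 5.83 and 5.85 with TCPOBOP, and both ligands' arrays lay above corn oil. The changes were 0.51 (SE 0.21, adjusted p = 0.296) and 0.22 (SE 0.21, adjusted p = 0.591), and the second probe set gave 0.50 with phenobarbital. In human CAR mice Trib3 read 5.12 to 5.22 on the 4 corn oil and phenobarbital arrays. These values lie near the dim limit of the arrays, 4.93 to 5.08. The second probe set was below it on phenobarbital replicate 1 (5.04) and corn oil replicate 2 (4.75) of these mice.

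Chac1 encodes an enzyme that breaks down glutathione and is a target of ATF4, and it had the widest range of the 10 genes. The wild-type arrays read 6.94 and 7.49 on corn oil, 5.73 and 6.26 with phenobarbital, 6.17 and 5.76 with TCPOBOP and 7.15 and 7.05 with CITCO. The 4 arrays of phenobarbital and TCPOBOP in wild type were the 4 lowest of the 24. The means were 7.22 ± 0.39 on corn oil, 5.99 ± 0.38 with phenobarbital and 5.96 ± 0.29 with TCPOBOP (SD, n = 2 each). The changes were -1.22 (SE 0.57, adjusted p = 0.358) with phenobarbital and -1.25 (SE 0.57, adjusted p = 0.228) with TCPOBOP, and neither passed in the fit to all arrays.

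Replicates of Chac1 were furthest apart on phenobarbital outside wild type, with an SD of 1.30 in knockout and 1.69 in human CAR mice (n = 2 each). Knockout arrays read 7.61 and 7.10 on corn oil, 6.44 and 8.28 with phenobarbital, 6.76 and 6.79 with TCPOBOP and 6.96 and 6.72 with CITCO. Human CAR arrays read 7.45 and 7.08 on corn oil, 9.60 and 7.21 with phenobarbital, 6.45 and 6.71 with TCPOBOP and 7.06 and 7.02 with CITCO. The values 8.28 and 9.60, on the arrays that stood apart, exceeded the other 22 arrays, which ran from 5.73 to 7.61. Without those arrays the wild-type calls were made with both ligands, at the same changes (adjusted p = 0.00597 with phenobarbital and 0.00169 with TCPOBOP). With wild-type arrays alone they were made too (adjusted p = 0.0155 and 0.00584). The wild-type values of Chac1 are the same in all these fits, and what differs is the set of arrays from which its spread is estimated. The share of all genes called in the 2 alternative fits is not given here.

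With phenobarbital in human CAR mice the Chac1 change was 1.13 (SE 0.57, adjusted p = 0.26), -0.06 without replicate 1 and 2.33 without replicate 2. In knockout it was 0.01 (SE 0.57, adjusted p = 0.995), -0.91 without replicate 2 and 0.93 without replicate 1. The wild-type effect of phenobarbital minus that in knockout was -1.23 (SE 0.80, adjusted p = 0.681), and minus that in human CAR mice -2.36 (SE 0.80, adjusted p = 0.295). Without the arrays that stood apart they were -0.31 and -1.16 (adjusted p = 0.895 and 0.334).

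**Figure D2:**
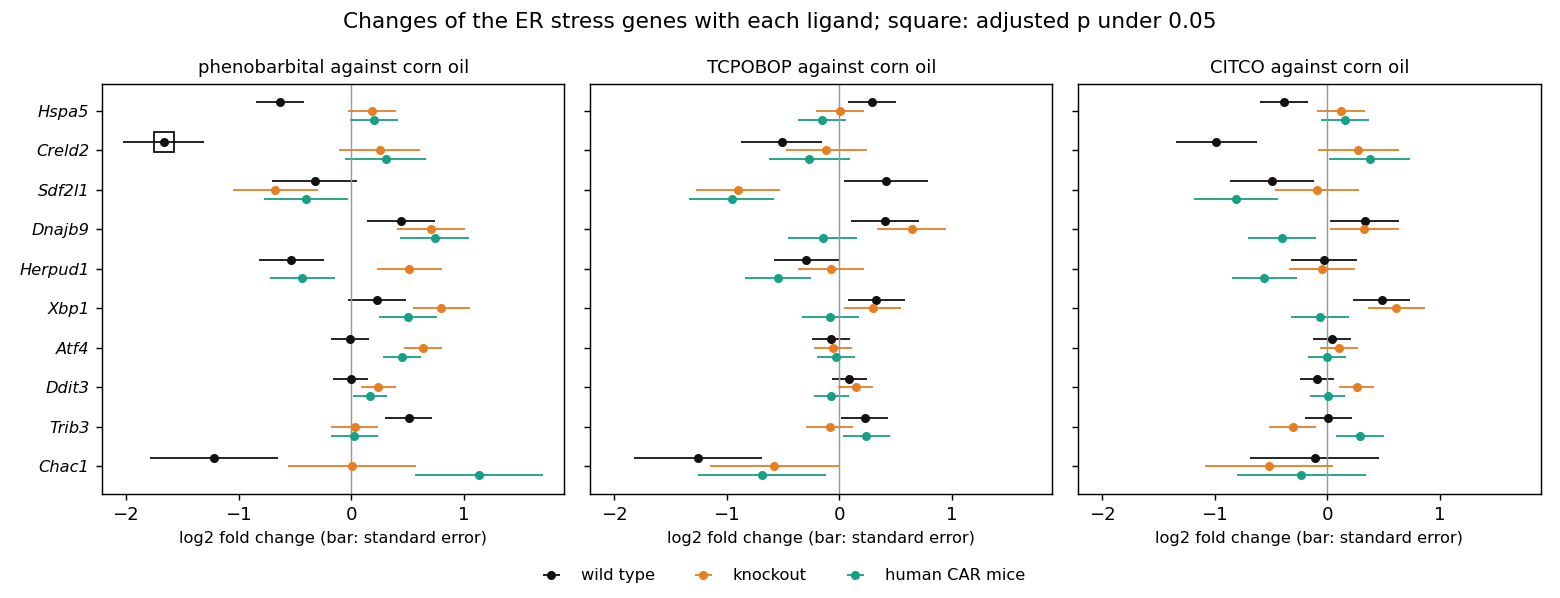
Log2 fold changes of the 10 genes with phenobarbital, TCPOBOP and CITCO against corn oil; points are limma estimates, bars 1 standard error, colours the 3 genotypes, and a square marks an adjusted p under 0.05. The only square is Creld2 with phenobarbital in wild type, at -1.66.

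Read as a group, the genes did not move one way with phenobarbital in wild type. Of the 10, 3 had a change above 0 and 7 below, with a median of -0.17 against 0.00 over all genes tested. The groups of 7 genes did not overlap: Creld2, Chac1, Hspa5, Herpud1 and Sdf2l1 were lower and Dnajb9 and Trib3 higher. Over all genes 52.1% did not overlap in that comparison. In knockout 9 changes were above 0 and 1 below, with a median of 0.25 against 0.03 over all genes. Without replicate 2, which stood apart, 7 were above 0 and 3 below, with a median of 0.08. Limma called 0 of the 10, against 0.731% of all genes, and 3 were at an unadjusted p under 0.05, against 21.3%. In human CAR mice 8 were above 0 and 2 below, with a median of 0.25 against -0.01, and without replicate 1, which stood apart, 5 were above and 5 below with a median of -0.01. Limma called 0, against 0.665%, with 2 at an unadjusted p under 0.05, against 21.2%.

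The medians in knockout and human CAR mice were thus lower without the arrays that stood apart, with 1 phenobarbital mouse left in each genotype. Of the 10 genes, 7 (70%) had their highest value of the 24 arrays on 1 of those 2 arrays, against 1948 of 9167 genes (21.3%), and 0 had their lowest there, against 27.5%. Xbp1, Atf4 and Chac1 were at ranks 1 and 2 on them. On human CAR phenobarbital replicate 1 the mean of 8 neutrophil markers was 6.92, against 5.48 on replicate 2 and 5.39 to 5.68 on the corn oil arrays. On knockout phenobarbital arrays it was 5.40 to 5.50. The 11 Kupffer markers had a median change of -1.21 in knockout, with 4 called lower, and array means of 6.54 to 7.24 against 7.94 to 8.15 on corn oil. Those corn oil means were the highest of the 12 groups, with wild-type corn oil at 7.48 to 7.88. Knockout arrays with TCPOBOP were also below them, at 6.85 to 7.39. The part of these cells, and of whatever sets the arrays apart, in the ER stress genes was not tested.

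**Figure D3:**
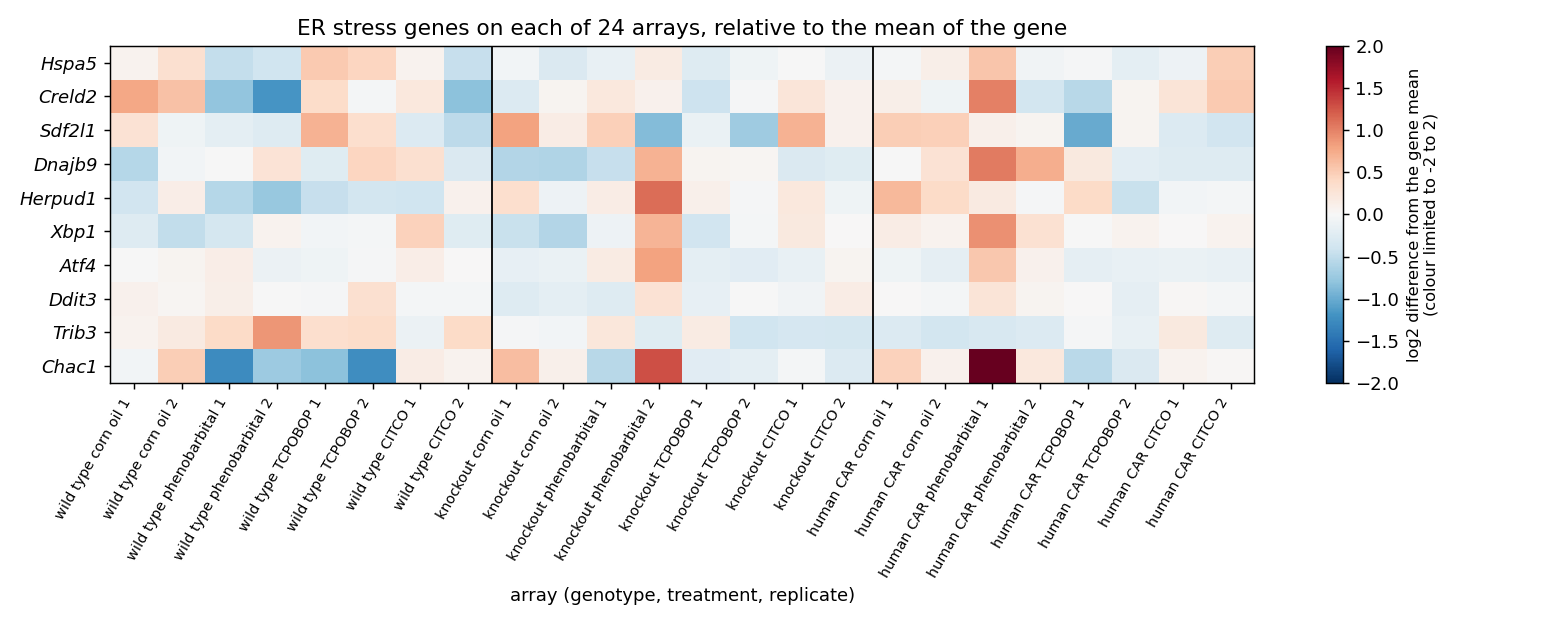
Each cell is the log2 value of a gene (rows) on an array (columns, by genotype, treatment and replicate) minus that gene's mean over 24 arrays, with colour limited to -2 to 2. Knockout phenobarbital replicate 2 and human CAR phenobarbital replicate 1 are the columns with most genes above their mean (8 and 9 of 10), and Creld2 and Chac1 are low on wild-type phenobarbital arrays.

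With TCPOBOP in wild type 6 of the 10 changes were above 0 and 4 below, with a median of 0.16. Limma called 0, against 6.14% of all genes, and 1 gene, Chac1, was at an unadjusted p under 0.05, against 20.1%. In knockout the median was -0.07 with 4 above 0 and 6 below. There limma called 0, against 0.0764%, and 1 was at an unadjusted p under 0.05, against 11.4%. In human CAR mice 1 was above 0 and 9 below with a median of -0.15. There 0 of the 10 and 0 of all genes were called, and 1 of the 10 was at an unadjusted p under 0.05, against 6.65%.

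With CITCO the wild-type median was -0.06, the knockout median 0.11 and the human CAR median -0.03. Limma called 0 of the 10 in each, against 0.0327%, 0.0327% and 0.0873% of all genes, and 1 gene in each was at an unadjusted p under 0.05, against 7.28%, 9.4% and 7.49%. Those genes were Creld2 in wild type (-0.99), Xbp1 in knockout (0.61) and Sdf2l1 in human CAR mice (-0.81).

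On corn oil the genotypes did not differ past the threshold in any of the 10 genes. Limma called 0 in knockout against wild type, where 0.229% of all genes were called, 0 in human CAR mice against wild type (0.0545%) and 0 in human CAR mice against knockout (0.12%). The counts at an unadjusted p under 0.05 were 1, 2 and 2, against 6.57%, 7.73% and 6.46% of all genes. Creld2 was -0.78 in knockout and -0.66 in human CAR mice relative to wild type (SE 0.36 each, adjusted p = 0.735 and 0.706). Its wild-type arrays, at 8.38 and 8.19, lay above the 4 others on corn oil, at 7.34 to 7.73. Dnajb9 and Xbp1 were 0.73 and 0.62 higher in human CAR mice than in knockout (adjusted p = 0.638 each), without overlap.

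For the effect of phenobarbital, limma called 0 of the 10 in each difference between genotypes, against 0.153% of genes for wild type minus knockout, 0.164% for wild type minus human CAR and 0.0109% for human CAR minus knockout. The counts at an unadjusted p under 0.05 were 4, 3 and 1, against 9.14%, 10.4% and 7.9%. The 4 were Creld2, Hspa5, Herpud1 and Atf4, with wild-type minus knockout effects of -1.92, -0.81, -1.05 and -0.65. Without the arrays that stood apart the effects were -1.98, -0.65, -0.56 and -0.32. For TCPOBOP and CITCO limma called 0 of the 10 in each of the 6 differences, with 0 or 1 at an unadjusted p under 0.05, against 5.03% to 11.9%. Over all genes 0 were called for TCPOBOP in human CAR minus knockout and for CITCO in wild type minus human CAR. For CITCO 0.0218% were called in wild type minus knockout and 0.0327% in human CAR minus knockout.

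The rest of the pathway was read through 5 lists. They held stress sensors and transducers (9 genes tested), ER chaperones and folding enzymes (22), degradation and export (18), ATF4 and CHOP targets (23) and, for contrast, cytosolic heat shock proteins (11). With TCPOBOP in wild type 5 of these 83 genes rose and 0 fell. That is 6.02%, a share near the 6.14% of all genes called there, and 1 of the 5 is a cytosolic heat shock gene.

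Ern1, which encodes the sensor IRE1, read 6.32 and 6.27 in wild type on corn oil and 6.81 and 6.84 with TCPOBOP. It rose by 0.53 (SE 0.10, adjusted p = 0.00459), was lost with the mean of its probe sets in place of 1 (adjusted p = 0.327) and passed without any 1 of the 4 arrays. P4hb, a protein disulfide isomerase, read 11.15 and 11.16 on corn oil and 11.70 and 11.71 with TCPOBOP. It rose by 0.55 (SE 0.11, adjusted p = 0.00459) and passed in all 13 alternatives run, those without 1 array included. The TCPOBOP arrays of both genes were the 2 highest of the 24.

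Ssr1 and Sec61a1 belong to the channel that moves new proteins into the ER. Ssr1 read 8.46 and 8.62 on corn oil and 9.15 and 9.33 with TCPOBOP, and rose by 0.70 (SE 0.17, adjusted p = 0.0189). Sec61a1 read 9.81 and 9.92 on corn oil and 10.41 and 10.44 with TCPOBOP, and rose by 0.56 (SE 0.14, adjusted p = 0.0268). Their TCPOBOP arrays too were the 2 highest of the 24. Both calls were lost without any 1 of the 4 arrays, with adjusted p up to 0.148 and 0.164, and that of Sec61a1 also with the mean of its probe sets (0.136).

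Hspa1b, an inducible Hsp70 of the cytosol and no ER gene, read 4.16 and 4.43 on corn oil and 5.80 and 5.47 with TCPOBOP. It rose by 1.34 (SE 0.23, adjusted p = 0.00143) and passed without any 1 of the 4 arrays. Its corn oil values lay below the dim limit of the arrays, 4.93 to 5.08, so the size of its rise is uncertain.

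The TCPOBOP effect was larger in wild type than in knockout for P4hb by 0.62 (adjusted p = 0.0458), Sec61a1 by 0.90 (adjusted p = 0.0247) and Ssr1 by 1.10 (adjusted p = 0.0202). Each of these 3 was lost without at least 5 of the 8 arrays in turn. Hspa1b was below the dim limit on 6 of those 8 arrays, so no difference is given for it. The effect was larger in wild type than in human CAR mice for P4hb by 0.67 (adjusted p = 0.0311), Ssr1 by 0.98 (adjusted p = 0.0446), Dnajc3 by 1.08 (adjusted p = 0.0183) and Derl3 by 1.32 (adjusted p = 0.0447). Each of these was lost without at least 7 of the 8 arrays in turn. Those of P4hb and Ssr1 were lost with only the arrays of both genotypes in the fit (adjusted p = 0.0539 and 0.0886), and that of Dnajc3 with the mean of its probe sets (0.39). Dnajc3 encodes a BiP co-chaperone and Derl3 a degradation protein. Their TCPOBOP changes were 0.22 and 0.52 in wild type (adjusted p = 0.486 and 0.21) and -0.87 and -0.80 in human CAR mice (adjusted p = 0.411 and 0.551), so neither passed within a genotype. Of the 83 genes, Hspa1b included, 4.82% were called in each of these differences, against 1.95% and 1.87% of all genes.

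By list, the TCPOBOP medians in wild type were 0.14 for chaperones, with 15 of 22 above 0, and 0.29 for degradation and export, with 13 of 18 above 0. The median over all genes was 0.01. In knockout the same medians were -0.29 and -0.15 and in human CAR mice -0.21 and -0.06. The medians over all genes were 0.001 in knockout and 0.015 in human CAR mice. Medians of the other lists are not given here, so these 2 lists do not stand for the whole pathway. The 9 hepatocyte markers had a median of -0.22 with TCPOBOP in wild type, with array means of 11.89 to 11.90 against 12.06 to 12.29 on corn oil, and 0 were called by limma, with 2 at an unadjusted p under 0.05, against 20.1% of all genes. Their part in the pathway genes was not tested.

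With phenobarbital in wild type 1 of the 83 pathway genes passed, 1.2% against 1.47% of all genes, and it fell. Atf5, a transcription factor downstream of ATF4, read 9.22 and 9.60 on corn oil and 8.52 and 8.45 with phenobarbital, without overlap. It fell by 0.93 on the log2 scale (SE 0.21, adjusted p = 0.041), a call lost without any 1 of the 4 arrays (adjusted p from 0.0711 to 0.312). With phenobarbital the chaperone median was -0.20 (wild type), -0.25 (knockout) and -0.17 (human CAR mice), with 18 of 22 below 0 in each. Limma called 0 of the 22 in each, with 2, 6 and 3 at an unadjusted p under 0.05, against 13.6%, 21.3% and 21.2% of all genes. The medians over all genes were -0.003, 0.03 and -0.01, with 49.4%, 54.1% and 48.4% of genes above 0. The knockout and human CAR values include the arrays that stood apart, and chaperone medians without them were not taken. Phenobarbital medians of the other lists are not given here.  Between the ligands in wild type, Sec61a1 was lower with phenobarbital than with TCPOBOP by 0.64 on the log2 scale (-0.64, SE 0.14, adjusted p = 0.0334). That call was lost without any 1 of the 4 arrays, with the highest adjusted p at 0.417, and with the mean of its probe sets (0.0714).

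**Figure D4:**
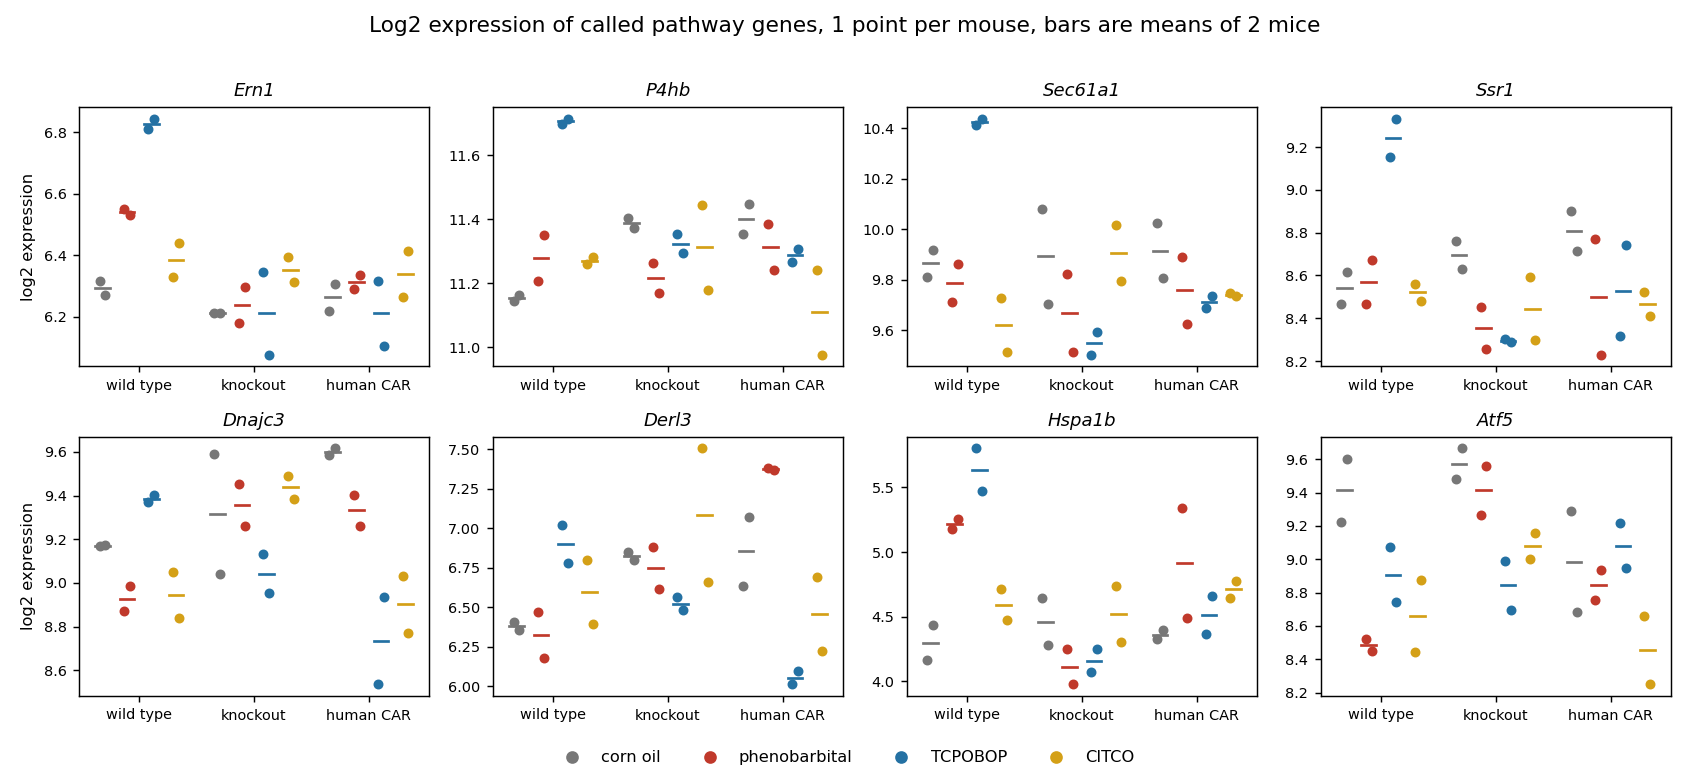
Log2 expression of the 8 pathway genes that passed a test, 1 point per mouse and a bar at the mean of 2 mice, by genotype (positions) and treatment (colours); each panel has its own axis range. Wild-type TCPOBOP arrays are the 2 highest of the 24 for Ern1, P4hb, Sec61a1, Ssr1 and Hspa1b, and Atf5 is at 8.52 and 8.45 with phenobarbital in wild type.

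The 10 genes followed each other only in part. Over their 45 pairs the median Pearson r of the 12 group means was 0.19, with 32 above 0, against a median of 0.00 over all pairs of tested genes. The values ran from -0.75 between Trib3 and Herpud1 to 0.81 between Hspa5 and Creld2, and Dnajb9 and Xbp1 stood at 0.80. Outside the 10, the genes most like Creld2 over the 12 group means were Rrp1 (r 0.83), Slc35e1 (0.82), Sars (0.81), Mvp (0.80) and Efhd2 (0.80). Those most like Hspa5 were Ranbp1 (r 0.90), Krt18 (0.88), Eif6 (0.87), Psmd14 (0.83) and Syvn1 (0.82). Sars encodes seryl-tRNA synthetase, in the list of ATF4 targets, and Syvn1 an ER ubiquitin ligase, in the list of degradation genes. The mean of the 10 genes was most like Trp53inp1 (r 0.95), Slc35a4 (0.91), Btg2 (0.91), Vmp1 (0.89) and Susd6 (0.88). These are descriptions over 12 groups picked from 9167 genes, and the groups share genotypes and treatments. The 12 groups include the 2 with an array that stood apart, where 7 of the 10 genes had their highest value. No r of this paragraph was taken without those arrays, so their share in it is not known.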

How the data were processed

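Per the submitters' processing notes, the deposited table holds log2 expression values that the authors computed by RMA (R 2.15.0) for 22690 probe sets on 24 arrays. The lowest value was 2.03 and the highest 14.1, 0 were missing, and medians of arrays spanned 5.41 to 5.51. No further normalisation was applied. Control probe sets (64) were left out, 20380 probe sets had 1 gene symbol in the platform annotation, 691 several, and 1555 were not listed. A gene was read by its probe set with the highest mean, and tested if 2 or more arrays had it over their own 40th percentile. The fit of 12 group means used limma 3.58.1 (R 4.3.3). The 22 contrasts were 9 between a ligand and its vehicle, 3 between genotypes given corn oil, 9 of ligand effects between genotypes and 1 between ligands. Genes named were all 10 and, of each list, up to 4 called genes of a comparison. The 5 genes most like a profile were also named. Genes, lists and arrays that stand apart were chosen with earlier results of these data known. Marker lists of endothelial and stellate cells were also read, with 12 and 9 measured markers. Of these, Emcn and Lrat were above the dim limit on 0 arrays and were not tested. Among the others 0 passed with phenobarbital or TCPOBOP against corn oil in wild type. For each ligand 1 endothelial marker was at an unadjusted p under 0.05 (13.6% and 20.1% of all genes). No 2 arrays were copies, since over 276 pairs at most 0.0486% of values were equal. The steps were tested on simulated arrays for phenobarbital in wild type with 9167 genes and 200 changed in each of 20 runs. Recovery was 88.6% at 2-fold and 98.6% at 4-fold, with 4.17% false calls. The simulated noise was normal and independent between genes and arrays, with no array that stood apart. Recovery is an average over genes drawn from all those tested. It does not give the recovery for the 10 genes, of which Chac1 had an SE of 0.57, so a gene not called may still have changed 2-fold. Tables and figures used matplotlib 3.10.9, pandas 2.3.3, numpy 2.4.6 and Python 3.11.15.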

Additional observations from a re-analysis of the deposited data

How the results depend on the processing

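Of the 220 changes of the 10 genes, 2996 of 3198 alternatives kept direction and call, 19 gained a call, 11 lost one, 172 changed sign without a call and 0 changed sign with one. For phenobarbital in wild type the number of genes called, 1 (Creld2), became 0 after cyclic loess, 2 with array weights (with Hspa5, adjusted p = 0.0458) and 2 (with Chac1) with wild-type arrays only or without the 2 arrays that stand apart; leaving out each array gave 0 to 0. For TCPOBOP in wild type 0 became 1 (Chac1) with wild-type arrays only and without the 2 arrays. For phenobarbital against TCPOBOP in wild type 1 (Hspa5) became 0 after cyclic loess, 0 with the replicate block, 2 with wild-type arrays only (with Sdf2l1) and 2 without the 2 arrays (with Creld2, adjusted p = 0.0388), and 0 to 0 leaving out each array. Leaving out each array gave 0 to 6 called genes for phenobarbital in knockout, where the 6 without replicate 1 were Atf4, Ddit3, Dnajb9, Herpud1, Sdf2l1 and Xbp1, and 0 to 2 in human CAR mice, where the 2 without replicate 2 were Atf4 and Chac1. For the phenobarbital effect it gave 0 to 1 in wild type minus knockout (Atf4) and 0 to 3 in wild type minus human CAR mice (Chac1, Creld2 and Hspa5, without human CAR phenobarbital replicate 2). The cause was not tested. The labels do not say whether replicate numbers pair the mice. Deviations of same-numbered arrays correlated between -0.45 and 0.42 over 66 pairs of groups, with a median of 0.03 and 17 over 0.1. These values show no pairing common to all groups and cannot exclude it among some of them. The replicate block changed no call of the 10 genes besides that of Hspa5. Leaving out an array leaves a group of 1 mouse, assumed to vary like the others. Of 225 alternatives of the called pathway changes, 150 kept the call, 75 lost it and 0 changed sign.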
